A study of Homo sapiens with 12 samples.

Results

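The genes described here are 9 markers used for pluripotent cells and for breast cancer stem cells: SOX2, POU5F1, NANOG, KLF4, MYC, LIN28A, CD24, CD44 and PROM1. They were taken as listed, with every probe set that the platform annotation assigns to that gene alone. This gave 23 probe sets for 8 of the 9 genes, among 19064 such probe sets for 11963 genes in all. CD44 had 8 probe sets, CD24 had 6, SOX2 had 3, KLF4 had 2, and NANOG, MYC, LIN28A and PROM1 had 1 each. POU5F1 had 0 single-gene probe sets, since the 1 probe set that lists it also lists POU5F1B and further copies of the gene, and it is not analysed further here.

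LSD2 (gene KDM1B) removes methyl groups from lysine 4 of histone H3, and the arrays ask how gene expression differs in MDA-MB-231 cells when it is lowered or raised. MDA-MB-231 is an established human breast cancer line of mesenchymal type without hormone receptors. The LSD2 shRNA group (knockdown) was set against a scramble shRNA group, and the LSD2/eGFP/Flag vector group (overexpression) against an eGFP/Flag vector group, with 3 arrays labelled as biological replicates in each of the 4 groups. All 4 groups carried a stable construct and were kept under G418, per the labels, and clonal origin is not given there. Each group is thus a separately made line, and the p-values measure only the spread between arrays of the same group. This spread was pooled over all 4 groups, so a probe set has the same SE of the difference in both comparisons. The values are deposited log2 RMA values, on which a difference of 1 is a doubling of signal, and a probe set was called when limma's adjusted p (Benjamini-Hochberg over all 19064) was under 0.05.

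SOX2, POU5F1 and NANOG are transcription factors that hold embryonic stem cells in the pluripotent state, and with KLF4 and MYC some of them can return differentiated cells to it. LIN28A is an RNA-binding protein of early embryonic cells that blocks maturation of let-7 microRNAs. CD44, a receptor for hyaluronan, and CD24, a small glycosylated surface protein, are used together to sort breast cancer cells, in which a CD44-high and CD24-low surface marks cells that start tumours efficiently. PROM1, known as CD133, is a membrane protein used to sort stem-like cells of several tumours.

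The promoters of KLF4 and CD44 are shown first, because KLF4 was called in both comparisons and CD44 had the largest difference among these genes. Each line holds the 250 bases before the annotated transcript start, 5′ to 3′ on the strand of the gene, from RefSeq in build GRCh38.p14. KLF4 lies on the minus strand at chr9:107489770-107490019 and CD44 on the plus strand at chr11:35138921-35139170. Capitals mark GC boxes (GGGCGG on either strand), the motif bound by SP1 and by KLF family factors.
KLF4: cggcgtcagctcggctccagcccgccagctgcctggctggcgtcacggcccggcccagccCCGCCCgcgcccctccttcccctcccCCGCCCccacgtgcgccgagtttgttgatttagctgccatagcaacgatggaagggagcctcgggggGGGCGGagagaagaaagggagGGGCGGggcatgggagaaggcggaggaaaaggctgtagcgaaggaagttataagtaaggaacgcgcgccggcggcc
CD44: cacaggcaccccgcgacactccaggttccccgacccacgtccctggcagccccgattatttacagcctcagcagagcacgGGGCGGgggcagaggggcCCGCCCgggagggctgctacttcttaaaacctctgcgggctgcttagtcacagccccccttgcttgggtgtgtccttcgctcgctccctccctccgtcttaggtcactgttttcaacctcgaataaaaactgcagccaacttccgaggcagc
KLF4 held 4 GC boxes and CD44 held 2. The motif was present in 6 of 11 promoter entries of SOX2, NANOG, KLF4, CD24, CD44 and PROM1 and in 42.6% of 35116 entries of the same length, so most genes with it are not among the 9. PROM1 and CD24 had several entries each, in part overlapping for CD24, so the 11 are not independent. No entry was at hand for MYC, LIN28A and POU5F1. An E-box (CACGTG), the motif bound by MYC with MAX, was found once in KLF4 and in 0 of the other 10 entries, against 6.34% of all entries, and a TATAAA motif was found in 0 of the 11, against 10.7%. These are matches of letters. Binding and histone methylation were not measured.

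Several properties of the arrays bear on these genes. The deposited medians were 6.65 to 6.68 (LSD2 shRNA), 6.69 to 6.71 (scramble), 7.14 to 7.18 (LSD2/eGFP/Flag) and 7.03 to 7.13 (eGFP/Flag), which fits a separate normalization of the shRNA set and the vector set, and levels were tested only within each set of 6. RMA values carry no detection calls. Values at or below percentile 90 of 93 probe sets for genes restricted to other tissues are called the floor range, which ended between 5.96 and 6.18 log2 units, and a group is in it when all 3 arrays are. By this measure 36.0%, 36.0%, 32.7% and 33.7% of all probe sets lay in the floor range of the LSD2 shRNA, scramble, LSD2/eGFP/Flag and eGFP/Flag groups. No probe set named KDM1B (0 of 19064), so neither the knockdown nor the overexpression could be checked in its own transcript.

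Before any of the 9 genes is considered, the 3 LSD2/eGFP/Flag arrays were unlike the rest. Their correlation across probe sets was 0.908 to 0.912 with eGFP/Flag arrays, against 0.991 to 0.994 between LSD2 shRNA and scramble arrays. With the shRNA arrays, eGFP/Flag arrays had 0.938 to 0.951 and LSD2/eGFP/Flag arrays 0.862 to 0.868. Of 19 measured genes typical of MDA-MB-231, 18 fell and 0 rose in LSD2/eGFP/Flag arrays. The median level of the 19 was 6.31 to 6.44 in LSD2/eGFP/Flag arrays and 11.78 to 11.95 in eGFP/Flag arrays. Their log2 values summed to 132.5 to 136.8 in LSD2/eGFP/Flag arrays and 222.4 to 224.4 in eGFP/Flag arrays. ANXA1, NT5E, AXL, CCN2, TGFBI and FOSL1 were in the floor range there, while vimentin (VIM) was still at 12.73. Markers of embryonic kidney and neurons mostly moved the other way, with 11 of 19 higher and 3 lower (30.8% and 25.8% of all genes were). Among the higher were the neurofilament NEFM and the tubulin TUBB2B. Both were in the floor range of eGFP/Flag arrays, and measured from its end they were higher by at least 5.20 and 4.64 log2 units. Neuronal genes were also among the lower. The tubulin TUBB3 fell by 0.68 ± 0.07, and MAP2 was called lower (-0.79 ± 0.10) with both groups in the floor range. In the LSD2 shRNA comparison 2 of the 19 MDA-MB-231 genes rose and 2 fell (4.66% and 5.17% of all genes did). The calls of PLAUR (higher) and TGFBI (lower) held without any 1 array. Those of NT5E (higher) and EMP3 (lower) were lost in 4 and 5 of the 6 fits that left out 1 array. All values of the second comparison rest on the 3 LSD2/eGFP/Flag arrays, so none can be given without them, and the part of this shift in the results below was not tested.

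With the LSD2 shRNA, KLF4 was the only one of the 8 measured genes that was called in the main fit. Both of its probe sets rose, which makes 2 of 23 probe sets (8.70%) against a background of 8.73% of all probe sets, and 1 of 8 genes by the brightest probe set (12.5%) against 9.82% of all genes. These shares are near the background and single out nothing about the 9 genes as a group. A fit on the shRNA arrays alone called 3 of the 23 (1528 of all 19064), adding MYC. One with a replicate block called 6 (2710 of all 19064), adding MYC, PROM1 (in the floor range), CD24 216379_x_at and CD44 210916_s_at. The median difference of the 23 probe sets was -0.11, and that of all probe sets was -0.01. By the brightest probe set it was 0.03 over the 8 genes and -0.01 over all genes. With the LSD2/eGFP/Flag vector 18 of 23 probe sets were called (78.3%, against 54.6% of all probe sets), 15 lower (26.1% of all were) and 3 higher (28.5% of all were). By the brightest probe set 6 of 8 genes were called (75%, against 56.6% of all genes). Of the 18, 3 were called with both groups in the floor range, and CD44 and CD24 supplied 12 of them, so the 18 are not independent genes. Groups did not overlap in 19 of the 23 (82.6%, against 59.2% of all probe sets). The median difference over the 23 was -1.52, against 0.00019 for all probe sets, but CD44 and CD24 hold most of the 23. By the brightest probe set the median over the 8 genes was -0.10, against 0.01 for all genes. Of the 8 genes, 4 were called lower, 1 of them with both groups in the floor range, and 2 were called higher. Of the 23 probe sets, 12 were outside the floor range in at least 1 group of the shRNA comparison and 16 in the vector comparison.

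**Figure D1:**
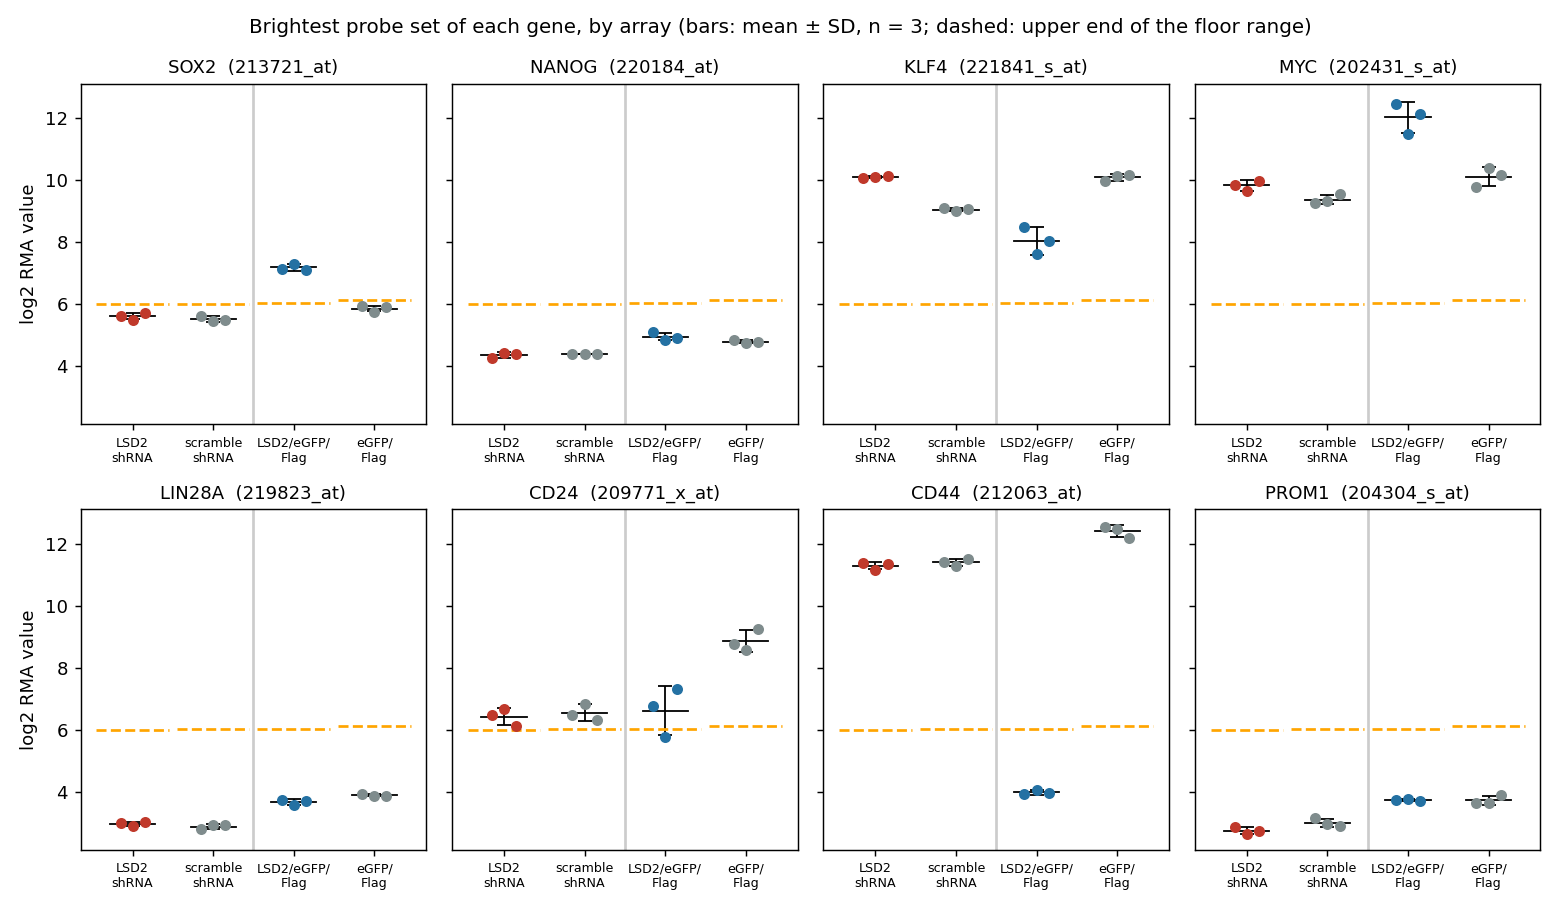
Log2 RMA value (vertical axis) of the brightest probe set of 8 genes on each of the 12 arrays, with 3 points per group, the mean and SD as black lines, and the upper end of the floor range as a dashed line. KLF4 is higher with LSD2 shRNA and lower with LSD2/eGFP/Flag than in their controls, CD44 is near 4 in the LSD2/eGFP/Flag arrays alone, and NANOG, LIN28A and PROM1 lie below the dashed line on all 12 arrays.

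KLF4, a zinc finger transcription factor, moved in opposite directions in the comparisons. Its brighter probe set (221841_s_at) read 10.08, 10.09 and 10.12 in LSD2 shRNA arrays, against 9.11, 8.99 and 9.06 in scramble arrays. The groups did not overlap, and the 3 arrays within each lay close together. KLF4 rose by 1.05 ± 0.16 log2 units (SE, n = 3 per group, 2.06-fold, adjusted p = 0.00151), the 49th largest rise of 19064 probe sets. This SE is pooled over all 4 groups. The SD was 0.02 in LSD2 shRNA arrays and 0.06 in scramble arrays, against 0.45 in LSD2/eGFP/Flag arrays. The dimmer probe set (220266_s_at) read 7.09, 7.17 and 7.33 in LSD2 shRNA arrays, against 6.54, 6.61 and 6.65 in scramble arrays, and rose by 0.60 ± 0.12 (adjusted p = 0.00879). Leaving out any 1 array kept both calls, with adjusted p of at most 0.0423. Non-overlapping groups were found in 4 of the 23 probe sets here (17.4%), against 26.2% of all probe sets.

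With the LSD2/eGFP/Flag vector the same probe sets fell. KLF4 221841_s_at read 8.51, 7.60 and 8.03 in LSD2/eGFP/Flag arrays, against 9.96, 10.14 and 10.18 in eGFP/Flag arrays, a difference of -2.04 ± 0.16 (4.13-fold lower, adjusted p = 1.1e-07). Every LSD2/eGFP/Flag array lay below every eGFP/Flag array, and the LSD2/eGFP/Flag arrays were the more spread of the groups (SD 0.45, against 0.12). The dimmer KLF4 probe set read 5.49, 5.07 and 4.91 in LSD2/eGFP/Flag arrays, all in the floor range, against 6.25, 6.39 and 6.43 in eGFP/Flag arrays (-1.20 ± 0.12, adjusted p = 1.5e-06). Measured against the end of the floor range, that fall is at least 1.25-fold. Ranked within their own array, values of KLF4 221841_s_at lay at percentiles 89.1 to 89.6 with LSD2 shRNA and 77.8 to 79.4 with scramble, and at 52.9 to 62.7 with LSD2/eGFP/Flag and 78.8 to 81.3 with eGFP/Flag. These percentiles were not compared by a test between the separately normalized sets. In bulk RNA, fewer cells that express a gene and less RNA per cell cannot be told apart.

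MYC, a transcription factor that drives growth and proliferation genes, had 1 probe set (202431_s_at). It read 9.85, 9.66 and 9.99 in LSD2 shRNA arrays, against 9.25, 9.32 and 9.54 in scramble arrays. The groups did not overlap, but the difference of 0.46 ± 0.21 was not called (adjusted p = 0.219). The spread here is shared with the more variable vector arrays. In a fit on the shRNA arrays alone the same difference had an adjusted p of 0.0442 and was called. MYC read 12.44, 11.48 and 12.14 in LSD2/eGFP/Flag arrays, against 9.79, 10.38 and 10.17 in eGFP/Flag arrays. It rose by 1.91 ± 0.21 (3.75-fold, adjusted p = 2.6e-06), the largest rise among the 9 genes, with no overlap between the groups.

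SOX2 had its clearest signal in the LSD2/eGFP/Flag arrays. Probe set 213721_at read 7.14, 7.30 and 7.12 in LSD2/eGFP/Flag arrays, against 5.93, 5.76 and 5.90 in eGFP/Flag arrays, which were in the floor range. SOX2 rose by 1.32 ± 0.09 by this probe set (adjusted p = 1.3e-08), or at least 2.09-fold when measured from the end of the floor range. The other probe sets showed less. SOX2 214178_s_at read 6.20, 6.42 and 6.02 in LSD2/eGFP/Flag arrays, against at most 6.16 in eGFP/Flag arrays, and was not called (0.17 ± 0.11, adjusted p = 0.216). SOX2 213722_at read 5.37, 5.35 and 5.53 in LSD2/eGFP/Flag arrays, against at most 5.14 in eGFP/Flag arrays, and was called (0.35 ± 0.08, adjusted p = 0.00275). Both groups were in the floor range, so its signal could not be told from that of genes restricted to other tissues. The rise of SOX2 therefore rests on 1 of 3 probe sets. In the shRNA arrays all 3 were in the floor range of both groups, between 5.03 and 5.72 in LSD2 shRNA arrays and between 4.79 and 5.64 in scramble arrays, and none was called (adjusted p from 0.461 to 0.81).

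NANOG, LIN28A and PROM1 were in the floor range of all 4 groups. NANOG 220184_at read 4.26, 4.44 and 4.39 in LSD2 shRNA arrays, against 4.39 in each of the 3 scramble arrays. In the vector arrays NANOG read 5.10, 4.86 and 4.93 with LSD2/eGFP/Flag, against 4.86, 4.74 and 4.80 with eGFP/Flag, and it was not called in either comparison (adjusted p = 0.912 for the shRNA and 0.104 for the vector). The scramble values of NANOG were identical to the last deposited digit, as were 4 of its 6 shRNA array values.

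LIN28A 219823_at was among the dimmest probe sets of every array, at percentiles 1.52 to 5.03. It read 3.00, 2.91 and 3.03 in LSD2 shRNA arrays, against 2.80, 2.93 and 2.95 in scramble arrays (adjusted p = 0.554). In LSD2/eGFP/Flag arrays LIN28A read 3.76, 3.58 and 3.72, against 3.94, 3.89 and 3.87 in eGFP/Flag arrays, and the difference of -0.21 ± 0.07 was called (adjusted p = 0.0249). Both groups were in the floor range, and the call was lost without LSD2/eGFP/Flag replicate 2 (adjusted p = 0.106) or eGFP/Flag replicate 1 (0.0746), so it is given as a value and not as a fall. PROM1 204304_s_at read 2.88, 2.65 and 2.74 in LSD2 shRNA arrays, against 3.17, 2.97 and 2.90 in scramble arrays (adjusted p = 0.129). PROM1 read 3.74, 3.78 and 3.70 in LSD2/eGFP/Flag arrays, against 3.66, 3.66 and 3.90 in eGFP/Flag arrays (adjusted p = 0.985). No signal of these 3 genes could be told from that of genes restricted to other tissues, which does not show that their RNA was absent.

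**Figure D2:**
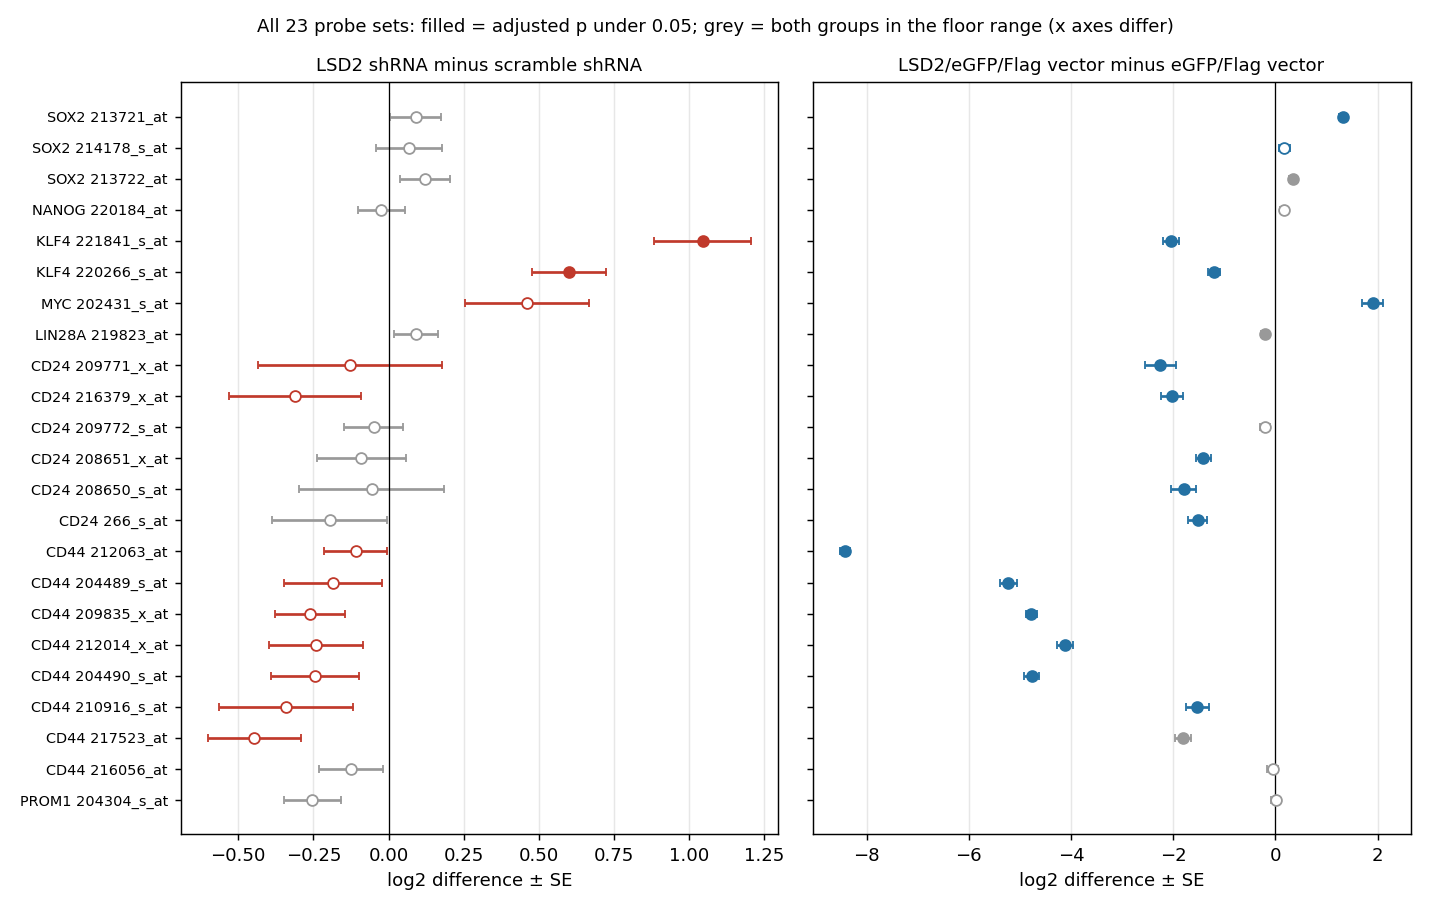
Log2 difference ± SE (horizontal axis, scales differ) of all 23 probe sets, for LSD2 shRNA minus scramble on the left and LSD2/eGFP/Flag minus eGFP/Flag on the right. Filled points were called and grey points had both groups in the floor range. On the left the filled points are the KLF4 probe sets, and on the right 7 of 8 CD44 and 5 of 6 CD24 probe sets are called lower.

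CD44 was bright in 3 of the 4 groups and in the floor range of the LSD2/eGFP/Flag group. Its brightest probe set (212063_at) read 3.93, 4.07 and 3.97 in LSD2/eGFP/Flag arrays, against 12.56, 12.49 and 12.18 in eGFP/Flag arrays. The difference of -8.42 ± 0.10 (adjusted p = 2.2e-15) was the second largest fall of all 19064 probe sets, after ANXA1. Because the lower group was in the floor range, the fall is better given as at least 82.8-fold. In the shRNA arrays the same probe set read 11.39, 11.16 and 11.35 with LSD2 shRNA, against 11.40, 11.30 and 11.53 with scramble (-0.11 ± 0.10, adjusted p = 0.641), with overlapping groups.

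The other CD44 probe sets fell by unequal amounts in the vector comparison. CD44 204489_s_at fell by 5.23 ± 0.16, 209835_x_at and 204490_s_at each fell by 4.77 (± 0.12 and ± 0.15), and 212014_x_at fell by 4.11 ± 0.16. All 4 were in the floor range of LSD2/eGFP/Flag arrays only, so their falls are at least 29.4-fold, 9.84-fold, 10.5-fold and 7.94-fold. CD44 210916_s_at read 4.88, 4.83 and 4.83 in LSD2/eGFP/Flag arrays, against 6.74, 6.64 and 5.73 in eGFP/Flag arrays, where replicate 3 was itself in the floor range. It fell by 1.52 ± 0.22 (adjusted p = 4.5e-05), or at least 1.26-fold from the end of the floor range. CD44 217523_at read 3.75, 3.83 and 3.89 in LSD2/eGFP/Flag arrays, against 5.72, 5.42 and 5.77 in eGFP/Flag arrays, and was called (adjusted p = 2.5e-07) with both groups in the floor range. CD44 216056_at was not called (-0.05 ± 0.11, adjusted p = 0.745).

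In the shRNA comparison all 8 CD44 probe sets had a difference below 0, from -0.11 to -0.45, and none was called. The smallest adjusted p was 0.102, for 217523_at, which read 5.85, 5.82 and 6.41 in LSD2 shRNA arrays and 6.72, 6.28 and 6.43 in scramble arrays. This probe set was called without LSD2 shRNA replicate 3 (-0.64, adjusted p = 0.0132). The 8 probe sets report 1 gene on the same arrays, so their shared sign is 1 observation. CD44 210916_s_at also differed in its place within the arrays, at percentiles 71.5 to 81.1 over the 6 shRNA arrays and 29.6 to 43.7 in eGFP/Flag arrays, while 212063_at was at 95.5 to 96.9 in the shRNA arrays and 96.2 to 97.5 in eGFP/Flag arrays. Which CD44 transcripts each probe set detects was not examined.

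CD24 was low in the shRNA arrays and higher in the eGFP/Flag arrays than in the LSD2/eGFP/Flag arrays. Its brightest probe set (209771_x_at) read 6.78, 5.78 and 7.32 in LSD2/eGFP/Flag arrays, against 8.78, 8.58 and 9.27 in eGFP/Flag arrays. CD24 fell by 2.25 ± 0.31 (4.76-fold lower, adjusted p = 2.4e-05), and replicate 2 of LSD2/eGFP/Flag was in the floor range. CD24 216379_x_at read 6.15, 5.78 and 6.64 in LSD2/eGFP/Flag arrays, against 8.08, 7.89 and 8.64 in eGFP/Flag arrays, and fell by 2.02 ± 0.22 (adjusted p = 2.7e-06). The groups did not overlap by either probe set.

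The next 3 CD24 probe sets were called lower in the vector comparison, with adjusted p of at most 2.2e-05, but all their LSD2/eGFP/Flag arrays were in the floor range. CD24 208651_x_at read 5.09, 5.01 and 5.47 in LSD2/eGFP/Flag arrays, against 6.68, 6.26 and 6.85 in eGFP/Flag arrays, a fall of at least 1.47-fold. For 208650_s_at and 266_s_at, 2 of 3 eGFP/Flag arrays were in the floor range as well, and no size is given. CD24 209772_s_at was in the floor range of all groups and was not called (adjusted p = 0.0995). In the shRNA comparison none of the 6 was called (differences from -0.31 to -0.05, adjusted p of at least 0.485). CD24 209771_x_at read 6.48, 6.66 and 6.14 in LSD2 shRNA arrays, against 6.50, 6.85 and 6.32 in scramble arrays, and 4 of the 6 probe sets were in the floor range of both groups. CD24 208651_x_at read 3.95 in all 3 scramble arrays and in 2 of 3 LSD2 shRNA arrays, 5 identical values. CD24 and NANOG have near-identical pseudogenes and SOX2 lies within the transcript SOX2-OT, so probe sets of these genes, whatever their suffix, may also read related or overlapping sequence.

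For members whose brightest probe set was above the floor range in at least 1 group, the genes with the most similar course over the 12 arrays were found by Euclidean distance after each set of 6 arrays was centred, with 1 probe set per gene. KLF4 was followed most closely by PRR16 (distance 0.58), STEAP1 (0.62) and GALNT3 (0.77), of which PRR16 differed by 1.07 with the LSD2 shRNA and by -2.35 with the LSD2/eGFP/Flag vector. CD44 was nearest to ANXA1 (0.54), NRG1 (1.02) and NT5E (1.08). MYC was nearest to CTH (0.62), SOSTDC1 (0.67) and MMP2 (0.69), CD24 to ARAP3 (0.65), KCNS3 (0.82) and ABLIM3 (0.88). SOX2 was nearest to RBM7 (0.26), SMARCB1 (0.30) and FAM53B (0.31), but it was above the floor range in the LSD2/eGFP/Flag group alone, so its likeness rests on that 1 group. The distance is set mostly by the larger vector comparison. The genes were picked for this likeness, so their values are a description.

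Other genes of the same pathways were counted from lists, each gene by its brightest probe set, against a background of all genes. In the shRNA comparison 4.66% of all genes were called higher and 5.17% lower, and in the vector comparison 30.8% and 25.8%. In a pluripotency network of 17 measured genes, 1 rose and 0 fell with the LSD2 shRNA (median difference 0.04, against -0.01 for all genes). The riser was HMGA2, a chromatin protein and let-7 target, at 10.19 ± 0.10 in LSD2 shRNA arrays and 8.67 ± 0.04 in scramble arrays (SD, n = 3), a rise of 1.52 ± 0.10 (SE, adjusted p = 3.7e-06). With the vector 6 rose and 1 fell (median 0.03, against 0.01 for all genes). HMGA2 was higher here too, at 11.93 ± 0.05 in LSD2/eGFP/Flag arrays and 10.99 ± 0.24 in eGFP/Flag arrays, a rise of 0.94 ± 0.10 (adjusted p = 3.3e-06). The others included galanin (GAL), which was at 10.43 ± 0.16 in LSD2/eGFP/Flag arrays and in the floor range of eGFP/Flag arrays, and the DNA methyltransferase DNMT3B (2.50 ± 0.10). PODXL, a sialomucin of pluripotent cells, fell by 0.77 ± 0.11. Of the 17 genes, 10 were in the floor range of both groups in the shRNA comparison and 9 in the vector comparison.

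Among 28 measured relatives of KLF4 and SOX2, 2 rose and 1 fell with the LSD2 shRNA (median -0.02). KLF10 (0.65 ± 0.16) and KLF11 (0.35 ± 0.10) rose and KLF7 fell by 0.56 ± 0.14, but these calls were lost when 1 array was left out, for KLF10 any of LSD2 shRNA or scramble replicates 1 and 2, for KLF7 any array but scramble replicate 3, and for KLF11 any of the 6. With the vector 10 rose and 6 fell (median 0.05). KLF9 (2.24 ± 0.21) and SOX4 (2.14 ± 0.15) rose, while KLF2, at 7.09 ± 0.20 in LSD2/eGFP/Flag arrays and 10.62 ± 0.19 in eGFP/Flag arrays, fell by 3.54 ± 0.12. SOX9, a factor of progenitor cells in many epithelia, fell by 3.28 ± 0.09.

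For MYC, the network of partners and antagonists had 1 rise, 0 falls and 18 genes not called with the LSD2 shRNA (median -0.03). The rise was MXI1, a MAX-binding antagonist of MYC (0.52 ± 0.14), whose call was lost without any 1 array other than scramble replicate 2. With the vector 10 of 19 rose and 2 fell (median 0.23), led by MYCL (1.63 ± 0.17, with 1 of 3 eGFP/Flag arrays in the floor range) and MYCBP2 (1.34 ± 0.09), while RUVBL2 fell by 0.72 ± 0.08. Of 27 measured genes known as MYC targets, 1 rose and 0 fell with the LSD2 shRNA (CDK4, 0.35 ± 0.06, median 0.12) and 11 rose and 3 fell with the vector (median 0.10). DCTPP1 (1.84 ± 0.07) and PUS1 (1.18 ± 0.12) led the rises, and UTP20 fell by 0.80 ± 0.17. The vector share of targets called higher, 11 of 27, is to be read beside the 30.8% of all genes.

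Of 23 measured ligands and partners of CD44, 2 rose and 0 fell with the LSD2 shRNA (median 0.09). The proteoglycan SRGN, whose product binds CD44, was at 11.66 ± 0.25 in LSD2 shRNA arrays and 8.52 ± 0.56 in scramble arrays and rose by 3.14 ± 0.23. NF2 (0.36 ± 0.09) lost its call without LSD2 shRNA replicate 2 or any scramble array. With the vector 5 rose and 9 fell (median -0.04), and SRGN was at 3.70 ± 0.17 in LSD2/eGFP/Flag arrays, in the floor range, and 10.88 ± 0.23 in eGFP/Flag arrays. The hyaluronan-degrading protein CEMIP was in the floor range of LSD2/eGFP/Flag arrays and at 7.73 ± 0.37 in eGFP/Flag arrays, a fall of at least 3.23-fold, and NF2 (1.89 ± 0.09) and the hyaluronan receptor HMMR (1.37 ± 0.11) rose.

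Among 28 other breast stem cell markers, 4 rose and 3 fell with the LSD2 shRNA (median 0.04). The BMP target ID4 rose by 0.77 ± 0.16 (called except without LSD2 shRNA replicate 1), the efflux pump ABCG2 fell by 0.64 ± 0.12, and endoglin (ENG) fell by 0.44 ± 0.11, a call lost without LSD2 shRNA or scramble replicate 1 or 2. TSPAN8 was called with both groups in the floor range (4.72 ± 0.05 with LSD2 shRNA and 3.82 ± 0.10 with scramble). With the vector 6 rose and 11 fell (median -0.08). The receptor KIT was at 10.64 ± 0.13 in LSD2/eGFP/Flag arrays and in the floor range of eGFP/Flag arrays, a rise of at least 22.8-fold. SNAI2 rose by 0.99 ± 0.17. EPCAM was in the floor range of LSD2/eGFP/Flag arrays and at 7.35 ± 0.26 in eGFP/Flag arrays, a fall of at least 2.48-fold. With the LSD2 shRNA EPCAM was called higher, with differences of 0.51 to 0.66 when 1 array was left out. That call was lost without LSD2 shRNA replicate 1 or 3 or scramble replicate 2. The integrin ITGA6, above the floor range in both groups, fell by 2.52 ± 0.13.

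**Figure D3:**
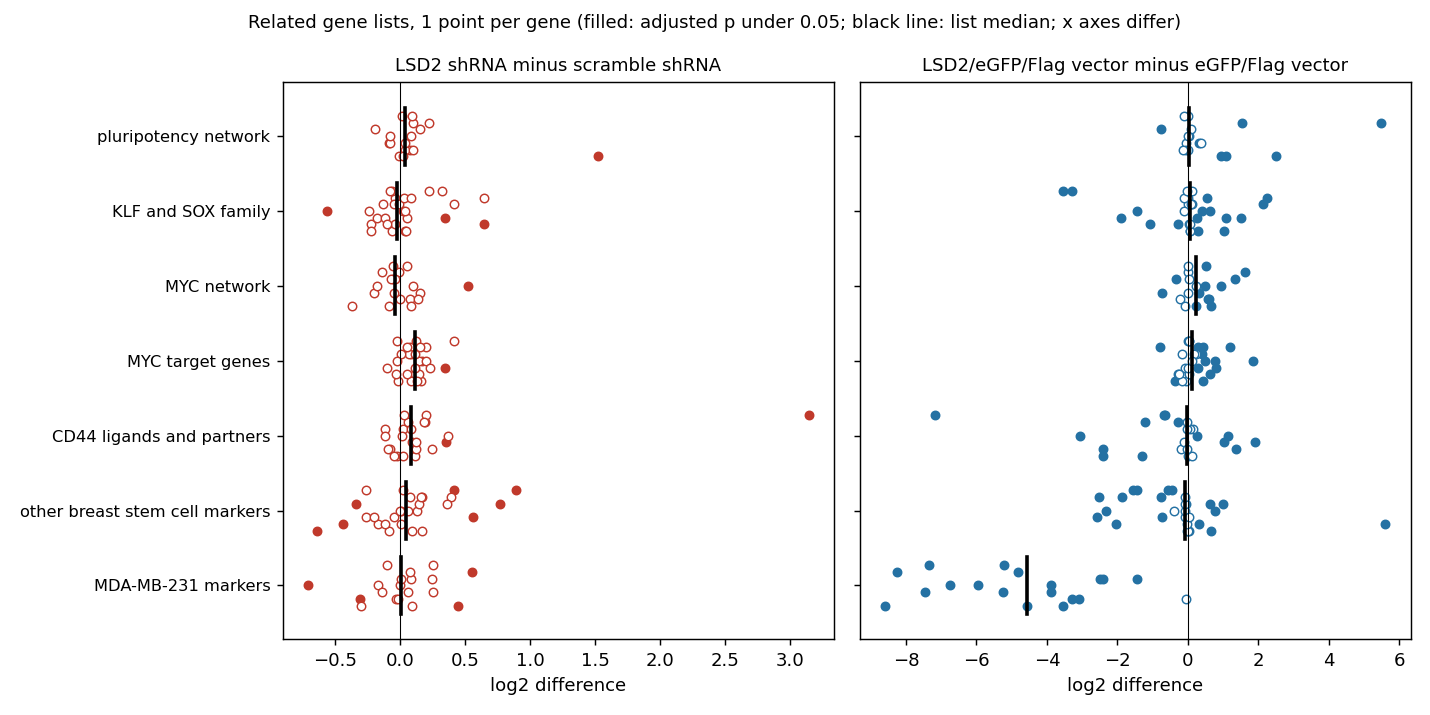
Log2 difference (horizontal axis, scales differ) of each gene of 7 lists by its brightest probe set, for LSD2 shRNA minus scramble on the left and LSD2/eGFP/Flag minus eGFP/Flag on the right. Filled points were called and black lines are list medians. All list medians except that of the MDA-MB-231 genes in the vector comparison (-4.56) lie between -0.08 and 0.23.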

How the data were processed

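RNA of 12 cell line samples was hybridised to Affymetrix 3′ arrays. The deposited tables hold log2 values of 22277 probe sets, with RMA named per the submitters' processing notes. Which software and probe annotation went into it is not stated in those notes. Probe sets naming 1 gene in the platform annotation were kept (19064, with 1043 naming several left out), and 19052 matched the RefSeq gene table of GRCh38.p14 by gene identifier. Genes with several probe sets were also represented by the brightest over all 12 arrays.

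limma 3.58.1 in R 4.3.3 was fitted to all 19064 probe sets and 12 arrays with a mean per group (degrees of freedom 8 residual, 4.95 prior), two-sided, with Benjamini-Hochberg adjustment. The fit was tested on simulated data, in which 67, 67 and 66 of 19064 probe sets were changed by 0.5, 1 and 2 log2 units. For each probe set the noise was independent, normal and of the same SD in all groups. Of simulated differences of 0.5 log2 units, 73.1% were recovered in the shRNA comparison and 61.2% in the vector comparison. For differences of 1 unit these shares were 97.0% and 94.0%. Of the simulated calls 3.23% (shRNA) and 7.10% (vector) were false. In the data far more probe sets were called (54.6% in the vector comparison) and spreads differed between groups, so these shares need not hold there. Bounds of the form "at least" set the lower group, array by array, at the higher of its value and the end of the floor range. The number of arrays limits the precision.

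The 9 genes, the lists and the tests were chosen with earlier results of these data known. The text names all 9 genes, up to 2 of the largest called rises and falls per list and comparison, and the 3 nearest genes per member. Alternatives were a fit on the compared groups alone, a replicate block, other scalings, filters, thresholds and weights, and leaving out each array. Luminal, blood, and fibroblast and endothelial markers gave rises and falls of 2 and 0 of 14, 1 and 1 of 11, and 1 and 0 of 12 with the LSD2 shRNA, and 4 and 5, 0 and 1, and 4 and 2 with the vector.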

Additional observations from a re-analysis of the deposited data

How the results depend on the processing

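The calls of both KLF4 probe sets held under every alternative tried in both comparisons, apart from 220266_s_at with the LSD2 shRNA under the added requirement of 1 log2 unit. No called difference of a named gene changed sign. Of 367 alternative values of the 23 probe sets in the shRNA comparison, 358 kept their side of the threshold, 1 lost it and 8 gained it. In the vector comparison 356 of 367 kept it, 8 lost it and 3 gained it. Same-numbered arrays of LSD2 shRNA and scramble deviated together for replicates 2 and 3 (r = 0.456 and 0.385) but not for replicate 1 (r = 0.0025). LSD2 shRNA replicate 2 and scramble replicate 3 had r of -0.393, and replicates 3 and 2 had -0.445. Replicates 2 and 3 thus differed in a shared way in both shRNA groups. Same-numbered arrays of the vector groups had r of -0.16, 0.14 and 0.15, and the 2 crossed pairs -0.19 and -0.23. Because replicate 1 and the vector groups showed less of this, the numbers were not taken as pairs in the main fit. With a replicate block, calls in the shRNA comparison were 2710 of all probe sets (1664 without), 6 of the 23 (2 without) and 3 of 8 genes (1 without). The added calls were MYC (adjusted p = 0.00802), CD24 216379_x_at (0.0334), CD44 210916_s_at (0.0125) and PROM1 (0.0466). In the vector comparison the block gave 9619 calls (10404 without) and 17 of 23 (18 without).

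In the shRNA comparison array weights gave 2957 calls, 4 probe sets of the 23 and 2 genes, and the fit on its 6 arrays alone called 2 genes. Calls numbered 713 at an adjusted p under 0.01 and 89 at 1 log2 unit or more, where 1 of the 23 remained past it. Without 1 array they ranged from 929 (without scramble replicate 1) to 1348, with 933 without LSD2 shRNA replicate 1 and 1030 without scramble replicate 2, for the 23 from 2 to 3, and for genes they stayed at 1. In the vector comparison calls numbered 3286 at 1 log2 unit or more and 6824 with 1 probe set per gene, where fewer were tested, and without 1 array from 9710 to 10011, with 17 to 19 of the 23 and 5 to 6 genes. With percentile 25 of all probe sets as the end of the floor range, 7 of the 23 were in it for LSD2 shRNA and 7 for scramble (11 and 11 by the main rule). For LSD2/eGFP/Flag and eGFP/Flag they were 13 and 6 (17 and 8 by the main rule). With percentile 75 of the 93 probe sets for genes of other tissues, the counts in this order were 10, 11, 13 and 6. Among those then outside it were SOX2 213721_at and CD44 217523_at in eGFP/Flag arrays and SOX2 213722_at in LSD2/eGFP/Flag arrays.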

Other observations

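Exact repeats of values were common in the shRNA arrays. Of 19064 probe sets, 7622 (40.0%) had the same deposited value, to the last digit, on at least 2 of the 6 shRNA arrays, against 306 (1.61%) on the 6 vector arrays. The share was 65.5% in the dimmest 25% of probe sets and 17.3% in the brightest 25% in the shRNA arrays, and 3.65% and 0.105% in the vector arrays. At least 4 equal values were found for 687 probe sets in the shRNA arrays and for 1 in the vector arrays, and 0 probe sets shared a value between the shRNA and vector arrays. Of the 23 probe sets described above, 5 had repeats in the shRNA arrays (NANOG, CD24 208651_x_at and 208650_s_at, SOX2 213721_at and 213722_at) and 0 in the vector arrays. Where values repeat, the SD of a group can be 0, as for NANOG in the scramble arrays. How the repeats arose was not tested.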
